A study of Homo sapiens with 24 samples.

Results

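The 3 tumors grown in mice on a normal diet (ND) were compared with OE33 cells kept in culture. OE33 is an established human esophageal adenocarcinoma (EAC) cell line. Of the 24 libraries in the series, 9 entered the comparison. The ND libraries came from OE33 cells injected under the skin of nude mice, which lack T cells, after 8 weeks of feeding, in animals bought at 4 weeks of age, and tumors were taken out 3 weeks later. The first culture group (EV, 3 libraries) held OE33 cells that carried an empty vector for 48 h, as controls of a TRIM15 overexpression experiment. The second (YY2-NC, 3 libraries) held OE33 cells given shControl for 72 h, as controls of a YY2 knockdown. Each gene was set against each culture group separately. A gene was kept when all 3 ND values lay above, or all 3 below, every EV and every YY2-NC value. Of 16873 genes tested, 9290 (55.1%) were kept, 4622 higher in the tumors and 4668 lower. Growth in a mouse or a dish, the experiment a library came from, and the transfection of the cultured cells changed together, so they cannot be told apart.

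A tumor under the skin lives on nutrients and oxygen carried by host vessels, and its cells touch matrix and each other on all sides. Cultured cells sit on plastic in medium rich in serum, sugar and amino acids. Immediate early genes code for transcription factors such as FOS and EGR1 that are switched on within minutes by growth factors, stretch or stress. Genes of DNA replication, ribosome assembly and lipid synthesis usually follow how fast cells grow.

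The ND libraries held 20760355 to 45994561 counts, EV 20108463 to 26479130 and YY2-NC 17035036 to 19994837. Replicates lay close together, with a biological coefficient of variation of 4.34% in ND, 1.69% in EV and 3.55% in YY2-NC (n = 3 each). The labels do not say that each library came from its own mouse or its own dish, so p-values measure the spread between these libraries. In bulk RNA, fewer cells of a kind and less RNA per cell cannot be told apart.

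The tumor libraries carried the epithelial markers of OE33, and several defining markers of other cells were at or near 0. The 13 OE33 epithelial markers summed to 15450 to 15910 CPM (counts scaled to a common library size, here by the library total) in ND, above EV (13290 to 13590) and YY2-NC (13500 to 14350). PECAM1, which marks endothelium, had 1, 2 and 0 counts in the ND libraries. PTPRC, carried by all white blood cells, had 1, 0 and 3. DCN of fibroblasts, C1QA of macrophages and ADIPOQ of fat cells were at 0 in all 3. Some lists, the Schwann and nerve list and the skeletal muscle list among them, were higher in ND than in EV and YY2-NC as a sum. The 15 macrophage and myeloid markers summed to 17.5 to 19.1 in ND, 9.55 to 9.59 in EV and 14.9 to 16.4 in YY2-NC, with CD14 kept as higher. The 10 adipocyte markers summed to 3.32 to 3.93, 1.73 to 2.30 and 2.00 to 2.17, with AQP7 kept as higher. How reads from the host were treated is not given in the sources used here. The 15 fibroblast markers summed to 34.3 to 37.3 in ND against 14.7 to 16.0 in EV and 12.4 to 14.2 in YY2-NC. COL1A1, a chain of type I collagen, supplied most of it, with 835, 1589 and 649 counts in ND, while its partner chain COL1A2 had 2, 4 and 0. Red blood cell genes stood out in EV instead. HBB, a globin chain, had 67, 204 and 205 counts there and 0 in every ND and YY2-NC library. The part of these markers in the results was not tested.

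**Figure D1:**
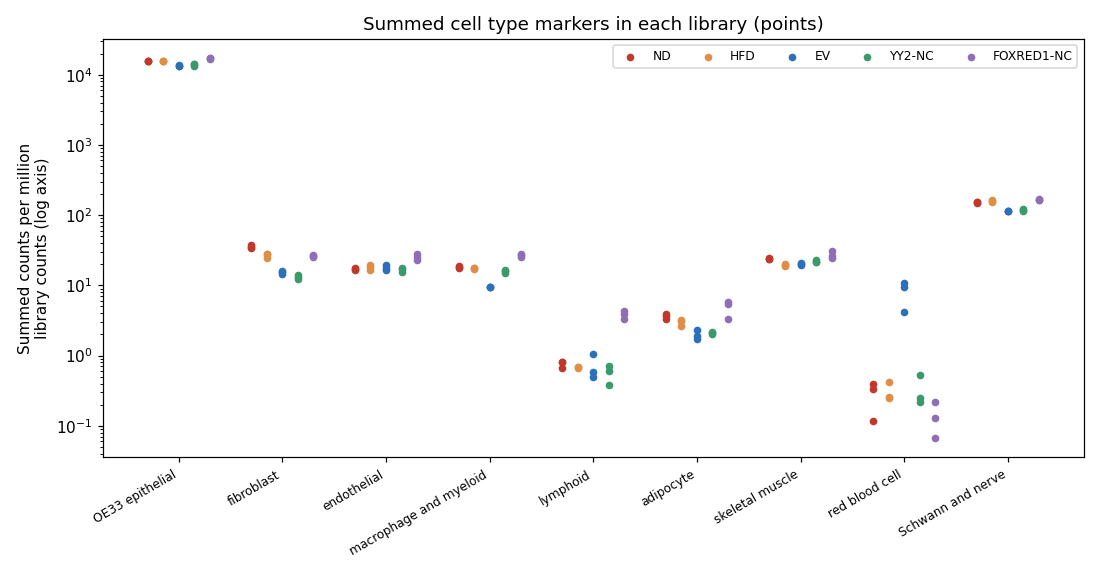
Summed CPM (log axis) of 9 lists of cell type markers, with each point a library and colors for the groups. Epithelial markers lie between 13290 and 17350 in every library, and red blood cell genes are higher in the 3 EV libraries than in the others.

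Most of the transcriptome differed between tumors and culture. Against EV, 5943 genes were higher in ND (35.2% of those tested) and 5980 lower (35.4%), by edgeR's quasi-likelihood test at an adjusted p under 0.05. Against YY2-NC, 5405 were higher (32% of those tested) and 5559 lower (32.9%). The culture groups differed from each other too, with 3388 genes higher in EV than in YY2-NC (20.1%) and 3333 lower (19.8%). Sizes separated the comparisons more than counts did. A change of at least 2-fold was called for 1744 genes higher and 666 lower against EV, and for 1063 and 538 against YY2-NC. Between the culture groups these were 119 and 433. The median size of change over all genes was 0.40 on the log2 scale against EV and 0.35 against YY2-NC, and 0.18 between EV and YY2-NC.

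Taken singly, EV was cleared by all 3 ND values in 36.7% of genes upward and 36.7% downward, and YY2-NC in 33.4% and 33.7%. Kept genes made up 27.4% of tested genes in the higher direction and 27.7% in the lower, which is the background for every list below. Among them 846 were at least 2-fold higher than both culture groups and 308 at least 2-fold lower. At 4-fold these were 106 and 4. The rule keeps genes by a narrow gap where replicates are tight. XPR1 was just inside, with a lowest ND value of 95.691 CPM, scaled by the TMM method here and below, and a highest culture value of 95.685. ZNF785 was just outside, with a lowest ND value of 9.1431 CPM under an EV value of 9.1439. In the lower direction SEMA7A was inside, at 59.646 CPM in ND under 59.65 in YY2-NC, and BRF2 was outside, at 5.9725 in ND over 5.9724 in EV.

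A further culture control stood apart from both. The FOXRED1-NC group, OE33 cells with shControl from the FOXRED1 knockdown experiment, was not used by the rule. In a fit of the culture groups alone, FOXRED1-NC differed from EV in 73.4% of 16361 genes (36.3% higher, 37.1% lower) and from YY2-NC in 70% of them (33.9% higher, 36.1% lower), while EV and YY2-NC differed in 38.2%. Changes of at least 2-fold numbered 3751, 3238 and 486. The median sizes of change were 0.50, 0.44 and 0.18 on the log2 scale. FOXRED1-NC thus lay further from EV and YY2-NC than the ND tumors did, where these medians were 0.40 and 0.35. With the FOXRED1-NC values required to lie on the same side as well, 2235 genes stayed higher in the tumors (13% of 17135 tested) and 2449 lower (14.3%). Each list below is therefore given with both counts. CPM of FOXRED1-NC come from a scaling of 12 libraries and those of the other groups from 9, so these differ slightly.

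The high-fat diet tumors (HFD, 3 libraries from the same experiment as ND) allowed a comparison between libraries that were in neither group of ND against EV. The YY2-NC libraries had still entered the filter, scaling and estimate of spread behind the ND against EV calls. Of 5600 genes called higher in ND than in EV and tested again, 60.7% were called higher in HFD than in YY2-NC and 6.45% lower, where 30.1% and 29.6% of all genes were. Of 5855 called lower, 60% were lower again and 8.8% higher. Against FOXRED1-NC the result was different. There 34.6% of the first set were called higher and 34.3% lower, at backgrounds of 34.5% and 33.4%. Of the second set 34.1% were called lower and 39.4% higher. Of the 4396 kept higher genes tested in HFD against FOXRED1-NC, 34.4% were called higher and 35% lower, both near the background. HFD and ND share their experiment, so growth setting and experiment cannot be told apart there either.

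**Figure D2:**
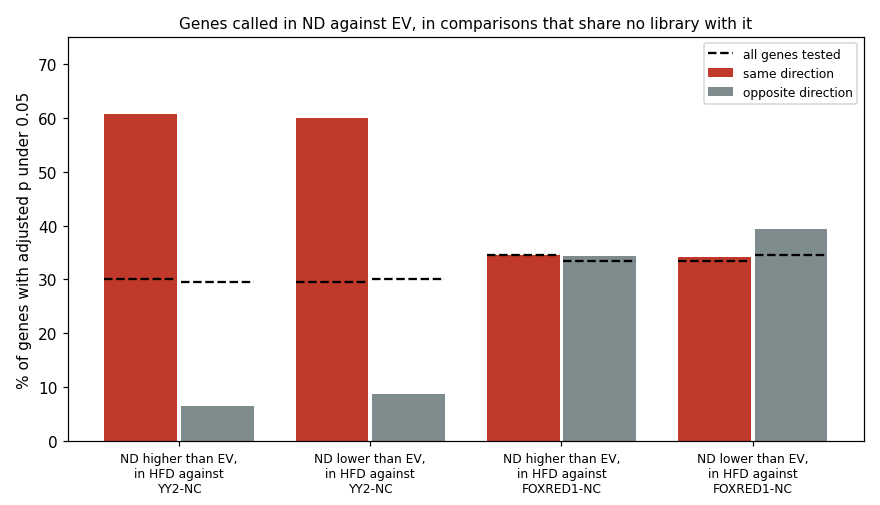
Percent of genes called in ND against EV that were called in the same (red) or the opposite (grey) direction in 2 comparisons, with dashed lines for all genes tested. Libraries of these 2 comparisons were in neither group of ND against EV, but YY2-NC shared its fit. Bars stand at 60.7 and 6.45 for genes higher in ND when HFD is set against YY2-NC, and at 34.6 and 34.3 against FOXRED1-NC.

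Immediate early genes held their direction against every culture group. Of 24 tested, 21 were called higher than EV and 21 higher than YY2-NC, with median log2 differences of 1.62 and 0.99 where the median of all genes was 0.01 in both. The rule kept 20 as higher (83.3%), and 19 stayed higher with FOXRED1-NC added. Promoters of 2 members are shown first, because EGR1 and EGR2 carry the CArG box, the site of serum response factor, which is known to drive this class. The stretches are the 250 bases before a start, from RefSeq on GRCh38.p14, with the boxes in capitals. EGR1 lies at chr5:138465229-138465478 on the plus strand, and EGR2 at chr10:62816367-62816616 on the minus strand.
EGR1: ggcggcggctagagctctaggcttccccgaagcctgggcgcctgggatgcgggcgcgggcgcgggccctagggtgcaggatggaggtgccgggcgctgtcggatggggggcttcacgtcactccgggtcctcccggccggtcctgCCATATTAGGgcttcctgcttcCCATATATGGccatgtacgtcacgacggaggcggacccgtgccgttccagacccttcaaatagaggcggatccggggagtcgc
EGR2: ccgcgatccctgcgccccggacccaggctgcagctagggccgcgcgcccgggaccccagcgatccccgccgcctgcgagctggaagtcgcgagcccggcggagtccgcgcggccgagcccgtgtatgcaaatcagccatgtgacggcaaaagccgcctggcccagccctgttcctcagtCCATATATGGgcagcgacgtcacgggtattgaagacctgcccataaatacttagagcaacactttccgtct
EGR1 holds 2 boxes and EGR2 holds 1. Of the 20 kept higher members, 18 had a promoter in the table and 2 of them held a box, while 1.44% of 27305 genes did. The motif was chosen after the values were seen, and a match describes letters only.

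EGR2, a zinc finger factor, had 30.1, 30.8 and 32.2 CPM in the ND libraries. It had 1.45, 1.57 and 1.49 in EV and 3.28, 3.76 and 3.07 in YY2-NC. The groups lay far apart, at 20.5-fold above EV and 9.23-fold above YY2-NC. Its relative EGR3 had 39.4, 38.4 and 40.2 CPM in ND against 2.27, 2.17 and 2.12 in EV and 3.62, 2.69 and 2.35 in YY2-NC. For EGR4, a relative that the list does not hold, the log2 differences were 4.01 ± 0.13 (SE) and 2.86 ± 0.12. EGR1 had 741, 748 and 814 CPM in ND, 225 to 239 in EV and 347 to 388 in YY2-NC.

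FOS, which pairs with JUN to form AP-1, had 433, 439 and 455 CPM in ND, 111, 107 and 113 in EV and 124, 121 and 117 in YY2-NC. FOSB had 250, 258 and 256 CPM in ND, 50.2 to 51.5 in EV and 39.9 to 46.1 in YY2-NC. NR4A1, an orphan nuclear receptor, was 6.2-fold above EV and 4.92-fold above YY2-NC. JUN lay close to YY2-NC, at 566, 616 and 607 CPM in ND against 521, 518 and 477, with EV at 211 to 224. ATF3, a stress factor, was 7.44-fold above EV and 2.23-fold above YY2-NC. Members thus shared a direction, while the distance to each culture varied.

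MYC went the other way, with 165, 172 and 166 CPM in ND below 257 to 260 in EV and 250 to 267 in YY2-NC. FOSL1 was the other kept lower member. DUSP6, a phosphatase that damps ERK, was lower than EV (110 to 113 CPM) and higher than YY2-NC (58.1 to 61.3) at 70.1 to 71.1 in ND.

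In the libraries the rule did not use, the same genes were higher in HFD than in FOXRED1-NC by edgeR at a Benjamini-Hochberg adjusted p. EGR2 differed by 3.70 ± 0.11 on the log2 scale (adjusted p = 6.22e-16), EGR3 by 3.50 ± 0.10 (adjusted p = 4.95e-16) and FOS by 7.18 ± 0.06 (adjusted p = 1.64e-23). MYC was lower by the same test, at -0.54 ± 0.04 (adjusted p = 4.79e-10). FOS and JUN were lower in FOXRED1-NC than in the other cultures, with 2.55 to 2.79 and 41.8 to 44.9 CPM in a scaling of 12 libraries.

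**Figure D3:**
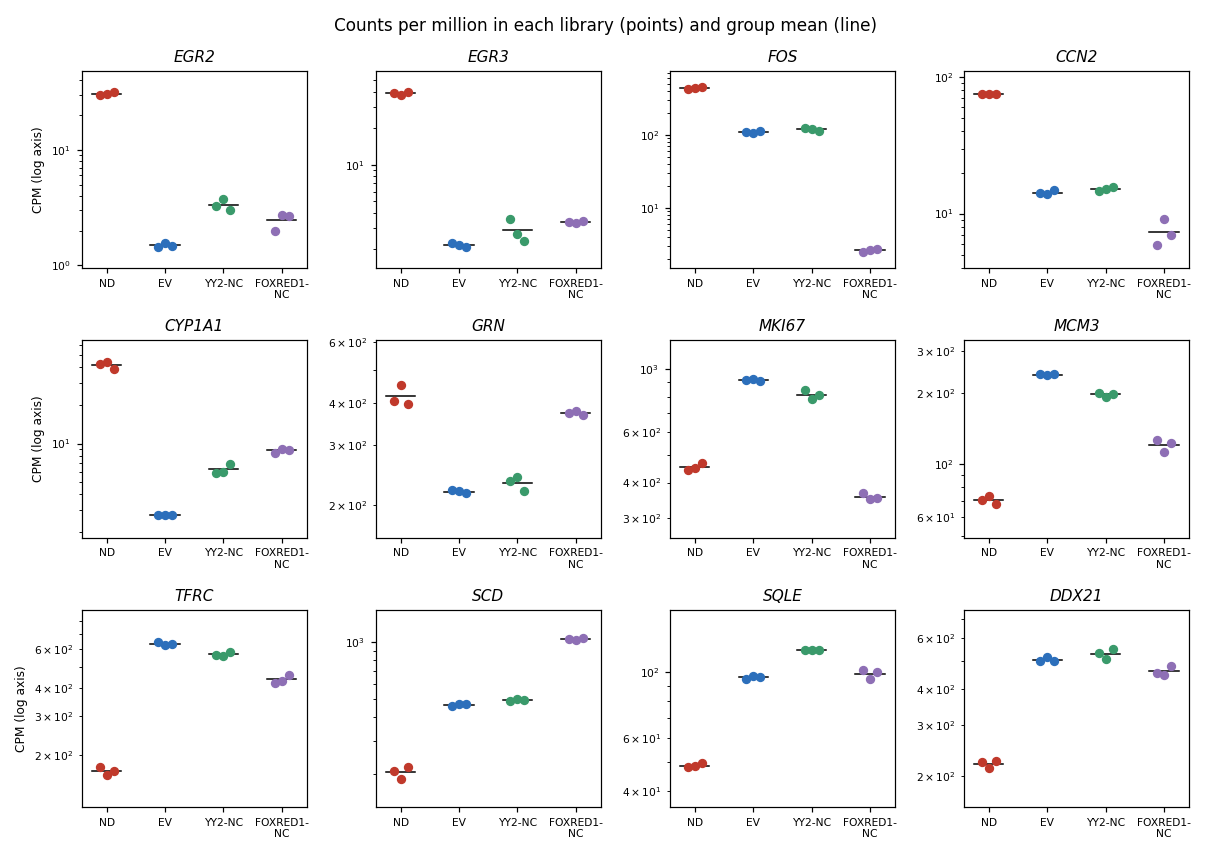
CPM on log axes of 12 genes in the 3 libraries (points) of ND, EV, YY2-NC and FOXRED1-NC, scaled together, with lines for group means. EGR2, EGR3, FOS, CCN2 and CYP1A1 are higher in ND than in every culture library, and MKI67 in ND lies between FOXRED1-NC and the other cultures.

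Among the most distant genes of the whole table, EGR2, EGR3 and EGR4 were joined by others that FOXRED1-NC did not set apart. CLEC7A, a receptor for fungal glucans, had 5.31, 4.64 and 6.03 CPM in ND, 0.155 to 0.185 in EV and 0.0511 to 0.389 in YY2-NC, and 3.88 to 5.96 in FOXRED1-NC. CYP1B1, an aryl hydrocarbon receptor target, had 108, 108 and 103 CPM in ND against 13.6 to 15.5 in EV and 12.3 to 15.3 in YY2-NC, with 100 to 107 in FOXRED1-NC. CYP1A1, another target of that receptor, stayed apart, with 43.0, 44.3 and 39.6 CPM in ND, 2.72 to 2.75 in EV, 5.90 to 7.00 in YY2-NC and 8.43 to 9.10 in FOXRED1-NC. FRY, PSCA and TNFSF15 were also higher than both cultures of the rule but not FOXRED1-NC, and PLA2G2F, a secreted phospholipase, was higher than all of them. In HFD, whose libraries held 19053958 to 39545549 counts, CLEC7A had 23, 17 and 42 raw counts and TNFSF15 had 165, 123 and 286. The ND libraries held 144, 226 and 132 of the first and 832, 1355 and 634 of the second. For EGR3 these were 794, 687 and 1588 in HFD and 1069, 1871 and 880 in ND.

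At the lower end, ADAMTS9, a matrix protease, had 12.6, 13.4 and 13.7 CPM in ND against 78.3 to 84.2 in EV and 65.5 to 70.1 in YY2-NC. TFRC, the transferrin receptor that brings iron into cells, had 179, 165 and 171 CPM in ND, 630 to 650 in EV and 563 to 587 in YY2-NC. FABP5, a fatty acid carrier, was 3.61-fold below EV and 3.49-fold below YY2-NC. ANXA2P2 is a copy of ANXA2 and can share its reads, so its value of 28.9 to 30.1 CPM in ND is uncertain. KCTD12, NIPAL1, TRDMT1, COMMD8 and THBS2 were likewise lower than all 9 culture libraries, and POLR3G was not. In HFD, ADAMTS9 had 947, 766 and 1561 raw counts and TFRC had 8560, 6845 and 13630. In ND, ADAMTS9 had 341, 653 and 301 and TFRC had 4854, 8026 and 3755.

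DNA replication genes were lower in the tumors than in EV and YY2-NC, but for all except 1 of them this did not hold once FOXRED1-NC was added. All 34 tested members were called lower than EV and lower than YY2-NC, with medians of -0.998 and -0.76, and all 34 were kept. With FOXRED1-NC added, 1 was kept. MCM3, part of the helicase that opens origins, was that gene, with 71.1, 74.2 and 68.9 CPM in ND, 238 to 242 in EV, 195 to 201 in YY2-NC and 112 to 127 in FOXRED1-NC. The HFD tumors did not share the ND level of MCM3, with 2988, 2315 and 5168 raw counts against 1928, 3617 and 1508 in ND. MCM2 of the same helicase had 80.6, 86.7 and 84.8 CPM in ND, 165 to 167 in EV, 149 to 165 in YY2-NC and 58.5 to 61.7 in FOXRED1-NC. GINS1, a helicase partner, was 3.4-fold below EV and 3.08-fold below YY2-NC.

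Mitosis genes followed the same order. Of 30 tested, 29 were called lower than EV and 26 lower than YY2-NC, 25 were kept as lower (83.3%), and none remained with FOXRED1-NC added. MKI67, the proliferation marker Ki67, had 447, 457 and 473 CPM in ND against 913 to 928 in EV and 794 to 847 in YY2-NC, and 351 to 369 in FOXRED1-NC. PLK1, a mitotic kinase, had 77.2, 85.9 and 80.0 CPM in ND, 193 to 203 in EV and 151 to 167 in YY2-NC. In HFD against FOXRED1-NC the direction was opposite. There 32 of 34 replication genes and 29 of 29 mitosis genes were called higher, where 34.5% of all genes were. In HFD against YY2-NC, 34 of 34 replication genes and 26 of 30 mitosis genes were called lower and none higher. Of all genes, 29.6% were called lower there and 30.1% higher.

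Ribosome assembly was lower against all 3 culture groups for part of its genes. Of 36 tested, 36 were called lower than EV and 32 lower than YY2-NC, with medians of -0.93 and -0.66. The rule kept 32 as lower (88.9%), and 18 remained with FOXRED1-NC. DDX21, a helicase of the nucleolus, had 225, 215 and 228 CPM in ND, 503 to 519 in EV, 514 to 558 in YY2-NC and 448 to 480 in FOXRED1-NC. UTP20, needed to process ribosomal RNA, was 2.74-fold and 2.48-fold lower. In HFD against FOXRED1-NC, DDX21 was lower by -0.50 ± 0.03 (adjusted p = 2.27e-10) and UTP20 by -0.60 ± 0.05 (adjusted p = 5.21e-09). Over that list, 10 genes were called higher there and 14 lower of 35 tested. Ribosomal proteins differed less, with 22 of 58 kept as lower and none left after FOXRED1-NC was added. In HFD against FOXRED1-NC, 57 of 58 were called higher and none lower, where 34.5% and 33.4% of all genes were.

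Most heat shock genes were lower than in EV and YY2-NC. Of 17 heat shock genes, 15 were kept as lower (88.2%) and 5 remained with FOXRED1-NC. HSPA8, the constant HSP70, had 1008, 950 and 975 CPM in ND, 2180 to 2244 in EV and 1890 to 1929 in YY2-NC, with 1120 to 1160 in FOXRED1-NC. HSPD1, the mitochondrial HSP60, was 3.15-fold and 2.85-fold lower. The HFD tumors did not share the ND level of HSPD1, with 20292, 16307 and 33787 raw counts against 11523, 18754 and 9270 in ND. HSPB1 was the one kept higher member. In HFD against FOXRED1-NC, 11 of 17 heat shock genes were called higher and 3 lower, where 34.5% and 33.4% of all genes were. In the unfolded protein response list, 13 of 24 were kept as lower, 7 with FOXRED1-NC. SYVN1, XBP1 and CREB3L2 were kept as higher, and none of them with FOXRED1-NC. In HFD against FOXRED1-NC, 13 of these 24 list members were called higher and 8 lower. CANX, a lectin chaperone of the endoplasmic reticulum, had 564, 529 and 568 CPM in ND, 1470 to 1515 in EV, 1683 to 1756 in YY2-NC and 1286 to 1355 in FOXRED1-NC. The HFD tumors did not share this low level of CANX, with 26591, 21838 and 44857 raw counts against 15293, 25778 and 12447 in ND. HSPA5, its main HSP70, had 853 to 913 CPM in ND against 1287 to 1342 in EV and 1592 to 1664 in YY2-NC, and 881 to 931 in FOXRED1-NC.

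**Figure D4:**
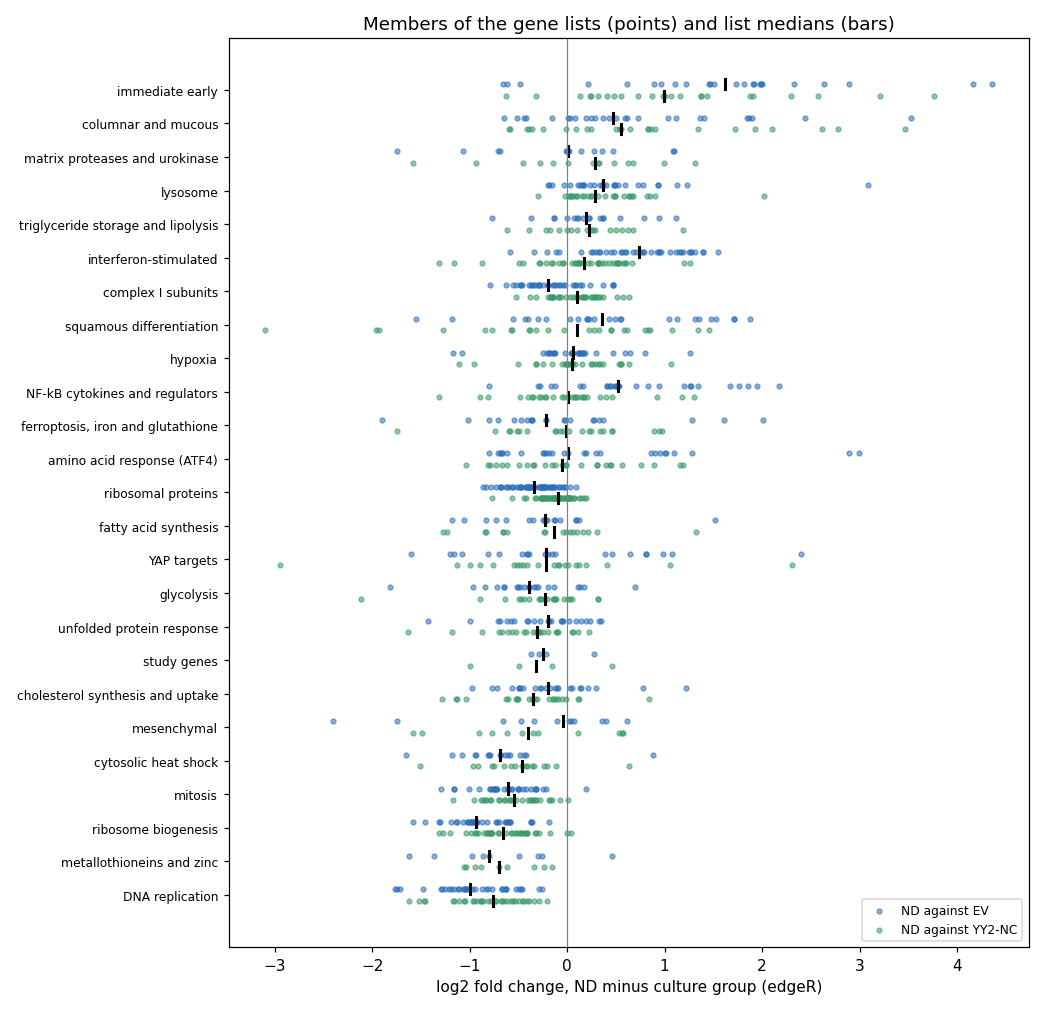
Log2 fold change of ND against EV (blue) and against YY2-NC (green) for every tested member of 25 gene lists, with black bars for list medians. Immediate early genes have the highest medians, 1.62 and 0.99, and DNA replication genes are all below 0.

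Lipid synthesis genes were kept as lower more often than as higher. Of 24 genes of cholesterol synthesis and uptake, 14 were called lower than EV and 16 lower than YY2-NC, 13 were kept as lower (54.2%), and 9 remained with FOXRED1-NC. SQLE, which makes squalene epoxide, had 48.5, 48.9 and 50.01 CPM in ND, 95.5 to 97.7 in EV and 95.0 to 101.8 in FOXRED1-NC. HMGCS1, an early enzyme of the pathway, had 50.3, 48.2 and 53.9 CPM in ND, 74.0 to 74.8 in EV and 101 to 105 in YY2-NC. HMGCS1 was also lower in HFD than in FOXRED1-NC, at -0.47 ± 0.05 (adjusted p = 3.72e-08). In that comparison, 14 of 24 list members were called lower and 7 higher, where 33.4% and 34.5% of all genes were. TM7SF2 was the kept higher member. The sterol element TCACCCCAC, searched on both strands, was in none of the 7 kept lower members with a promoter in the table and in 0.45% of all genes. This motif too was chosen after the values were seen. At so low a share, 7 promoters are too few to show more or fewer matches than in all genes.

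In fatty acid synthesis 8 of 18 were kept as lower (44.4%) and 7 remained with FOXRED1-NC. SCD, which puts the double bond into stearate, had 210, 191 and 220 CPM in ND, 462 to 471 in EV, 488 to 504 in YY2-NC and 1024 to 1047 in FOXRED1-NC. FASN, fatty acid synthase, had 231, 255 and 215 CPM in ND, 388 to 391.8 in EV, 393 to 434 in YY2-NC and 425 to 467 in FOXRED1-NC. SCD differed by -1.83 ± 0.03 in HFD against FOXRED1-NC (adjusted p = 7.54e-20) and FASN by -0.77 ± 0.04 (adjusted p = 1.28e-12). Of the 18 list members, 9 were called lower there and 4 higher, where 33.4% and 34.5% of all genes were. ACACA, the committed step of the pathway, was not kept, at 24.3 to 27.4 CPM in ND, 22.2 to 37.6 in EV and 34.8 to 48.3 in YY2-NC. MLXIPL, a sugar-sensing factor, was kept as higher but not against FOXRED1-NC. For triglyceride storage and breakdown 7 of 18 were kept as higher and 3 as lower, and 2 and 3 remained. PNPLA2, the first lipase of stored fat, had 126, 135 and 129 CPM in ND, 57.1 to 61.8 in EV and 78.2 to 84.4 in YY2-NC, with 124 to 134 in FOXRED1-NC.

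Lysosome genes were higher, and none was kept as lower. Of 28, 22 were called higher than EV and 20 higher than YY2-NC, 18 were kept (64.3%), and 10 remained with FOXRED1-NC. CTSA, a lysosomal carboxypeptidase, had 374, 378 and 375 CPM in ND, 215 to 225 in EV, 192 to 206 in YY2-NC and 223 to 253 in FOXRED1-NC. GRN, the progranulin gene, had 409, 457 and 399 CPM in ND, 219 to 223 in EV, 222 to 245 in YY2-NC and 368 to 378 in FOXRED1-NC. CTSD was higher in HFD than in FOXRED1-NC by 0.44 ± 0.04 (adjusted p = 2.29e-08). In that comparison, 15 of 28 lysosome genes were called higher and 8 lower, where 34.5% and 33.4% of all genes were. GPNMB, a membrane glycoprotein, was 8.48-fold above EV in ND, and in HFD against FOXRED1-NC it differed by -0.03 ± 0.23 (adjusted p = 0.913). It had 492, 859 and 381 raw counts in ND, 34, 44 and 61 in EV and 33, 33 and 60 in HFD. The HFD tumors thus did not share the ND level of GPNMB.

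Amino acid response genes went both ways. Of 27 ATF4 targets 10 were kept as higher and 11 as lower. All 11 lower ones stayed lower with FOXRED1-NC, and 3 of the higher ones stayed higher. PHGDH, the first enzyme of serine synthesis, had 41.7, 43.7 and 38.5 CPM in ND, 20.7 to 22.4 in EV, 28.7 to 32.2 in YY2-NC and 123 to 128 in FOXRED1-NC. PSAT1, a later enzyme of serine synthesis, had 94.7, 92.8 and 97.8 CPM in ND, 151 to 155 in EV, 156 to 170 in YY2-NC and 290 to 299 in FOXRED1-NC. SLC7A11, the cystine carrier, had 116, 118 and 116 CPM in ND, 201 to 210 in EV, 150 to 162 in YY2-NC and 273 to 300 in FOXRED1-NC. The higher ones against all cultures were ATF3, DDIT3 and NUPR1. NUPR1 rested on few reads and a narrow gap, with 13, 31 and 18 raw counts in ND and 5, 8 and 2 in YY2-NC. CHAC1, which breaks down glutathione, was higher than both cultures of the rule, and ASNS, asparagine synthetase, had 6.90 to 7.08 CPM in ND, 3.37 to 3.62 in EV and 5.44 to 5.84 in YY2-NC against 24.8 to 27.3 in FOXRED1-NC.

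Among 22 ferroptosis, iron and glutathione genes 8 were kept as higher and 9 as lower, and 4 and 7 remained with FOXRED1-NC. FTH1, the ferritin heavy chain that stores iron, had 2940, 3208 and 3311 CPM in ND, 745 to 811 in EV, 1567 to 1719 in YY2-NC and 2581 to 2770 in FOXRED1-NC. SAT1, which acetylates polyamines, was 3.04-fold above EV and 1.96-fold above YY2-NC. FTH1 has many processed copies and metallothioneins are near-identical, so reads may be split between copies. FTH1 was higher and TFRC lower in the same tumors. GPX4, which removes lipid peroxides, had 213, 210 and 205 CPM in ND, 171 to 177 in EV, 151 to 154 in YY2-NC and 165 to 174 in FOXRED1-NC, and was higher in HFD than in FOXRED1-NC by 0.31 ± 0.04 (adjusted p = 1.27e-06).

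**Figure D5:**
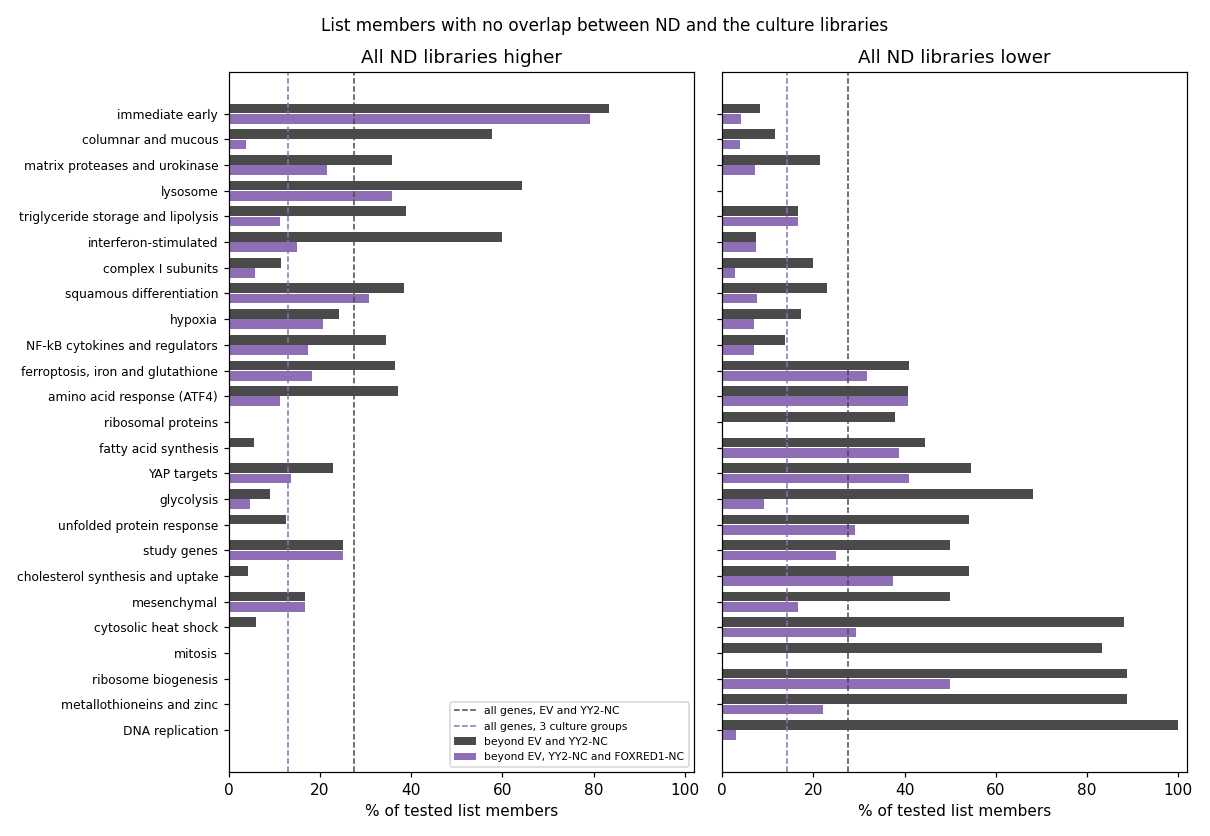
Percent of tested members of each list with all ND values above (left) or below (right) every EV and YY2-NC value (dark), and beyond FOXRED1-NC as well (purple), with dashed lines for all genes. Immediate early genes keep 83.3% when 2 culture groups are used, and DNA replication genes fall from 34 kept members to 1.

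Hypoxia genes differed by culture. Of 29 tested, 7 were kept as higher (24.1%) and 5 as lower (17.2%), shares below those of all genes. With FOXRED1-NC added 6 and 2 remained, where 13% and 14.3% of all genes did. In HFD against FOXRED1-NC 21 were called higher and 5 lower, with a median of 0.53, where 34.5% and 33.4% of all genes were called. In HFD against YY2-NC these were 14 and 6, where 30.1% and 29.6% of all genes were called. ADM, the vessel-dilating peptide adrenomedullin, had 117, 122 and 119 CPM in ND, 47.6 to 53.6 in EV and 53.9 to 61.9 in YY2-NC. CA9, a carbonic anhydrase that is a common hypoxia marker, differed from EV by 0.13 ± 0.20 and from YY2-NC by 0.16 ± 0.21 on the log2 scale. FOXRED1-NC was far lower, with 1, 1 and 0 raw counts of CA9 against 52, 81 and 40 in ND and 40, 40 and 94 in HFD. VEGFA, the vessel growth factor, had 245 to 266 CPM in ND, 225 to 229 in EV and 252 to 255 in YY2-NC. SLC2A1, the main glucose carrier, had 240 to 266 CPM in ND, 269 to 282 in EV and 233 to 251 in YY2-NC. ANKRD37 was kept as higher, and its promoter is shown because it holds the core ACGTG of the hypoxia factor's site, fixed as a motif, with matches on either strand in capitals. The stretch is chr4:185396591-185396840 on the plus strand of GRCh38.p14, and CACGTG holds the core on both strands.
ANKRD37: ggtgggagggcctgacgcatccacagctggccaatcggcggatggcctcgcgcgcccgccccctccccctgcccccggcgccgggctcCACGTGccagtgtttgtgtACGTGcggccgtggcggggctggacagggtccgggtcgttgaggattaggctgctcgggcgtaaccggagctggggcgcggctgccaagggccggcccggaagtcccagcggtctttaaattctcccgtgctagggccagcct
Of 7 kept higher members 6 had a promoter in the table and 4 held the core, which 21.7% of all genes do. Glycolysis genes were mostly lower than EV and YY2-NC, with 15 of 22 kept as lower (68.2%) and 2 left with FOXRED1-NC. In HFD against FOXRED1-NC the direction was opposite, with 17 of 21 called higher and 2 lower and a median of 0.58. PDK1, which blocks pyruvate entry into mitochondria, had 24.8 to 25.9 CPM in ND, 49.0 to 50.7 in EV and 46.9 to 47.8 in YY2-NC, and 21.9 to 27.3 in FOXRED1-NC.

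Interferon and NF-kB genes differed by culture. Of 40 interferon-stimulated genes, 34 were called higher than EV and 24 higher than YY2-NC, with medians of 0.74 and 0.17, and 35 were lower in EV than in YY2-NC. The rule kept 24 as higher (60%), and 6 remained with FOXRED1-NC. In HFD against FOXRED1-NC the direction was opposite for most, with 27 of 40 called lower and 11 higher. Of all genes, 33.4% were lower there and 34.5% higher. OAS1, which senses double-stranded RNA, had 208, 217 and 215 CPM in ND, 68.0 to 75.6 in EV and 92.0 to 92.9 in YY2-NC, but 324 to 343 in FOXRED1-NC. OASL had 307, 312 and 311 CPM in ND, 123 to 132 in EV, 192 to 199 in YY2-NC and 36.2 to 40.2 in FOXRED1-NC. In the NF-kB list 10 of 29 were kept as higher (34.5%), 5 with FOXRED1-NC. NFKBIZ, a nuclear regulator of NF-kB, had 219, 228 and 233 CPM in ND, 61.6 to 63.5 in EV and 118 to 121 in YY2-NC. CXCL8, a neutrophil chemokine, fell between the cultures, with 84.8 to 86.2 CPM in ND, 26.3 to 27.4 in EV and 98.9 to 109 in YY2-NC.

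Columnar genes were kept as higher more often than genes at large, in the comparison with EV and YY2-NC. Among 26 columnar and mucous genes 15 were kept as higher (57.7%) and 1 remained with FOXRED1-NC. Of 27 tested in HFD against FOXRED1-NC, 20 were called lower and 4 higher, where 33.4% and 34.5% of all genes were. CEACAM5, a glycoprotein of gut epithelium, had 205, 203 and 204 CPM in ND, 55.01 to 58.7 in EV and 60.1 to 63.1 in YY2-NC, but 1514 to 1563 in FOXRED1-NC. KRT8, a keratin of simple epithelium, had 1191, 1273 and 1201 CPM in ND, 1917 to 1920 in EV and 1799 to 1900 in YY2-NC, and 961 to 1023 in FOXRED1-NC. MUC1 had 28.4 to 29.6 CPM in ND, 7.29 to 8.32 in EV and 20.2 to 20.6 in YY2-NC. In the squamous list 10 of 26 were kept as higher and 6 as lower, and 8 and 2 remained, among them SPRR1A, a cornified envelope protein, with 31.2 to 32.9 CPM in ND and 8.91 to 12.3 in EV and YY2-NC. KRT5, a basal keratin, had 1, 0 and 1 counts in ND.

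YAP targets were split. Of 22, 5 were kept as higher and 12 as lower, 3 and 9 with FOXRED1-NC. CCN2, a matrix-linked growth factor, had 76.1, 76.0 and 76.4 CPM in ND, 14.0 to 14.9 in EV, 14.8 to 15.8 in YY2-NC and 5.88 to 9.10 in FOXRED1-NC. CCN2 was higher in HFD than in FOXRED1-NC by 4.03 ± 0.08 (adjusted p = 9.80e-19). Of the 22 targets, 12 were called higher there and 10 lower, where 34.5% and 33.4% of all genes were. DLC1 had 20.4 to 22.0 CPM in ND, 64.2 to 65.5 in EV, 45.6 to 48.05 in YY2-NC and 73.0 to 78.8 in FOXRED1-NC, and TGFB2 was lower than all cultures as well. Of 9 metallothionein and zinc genes 8 were kept as lower and 2 remained. Of 12 mesenchymal genes 2 were kept as higher and 6 as lower, and 2 of each remained. THBS1, a matrix glycoprotein, had 58.8, 59.3 and 57.4 CPM in ND, 43.3 to 45.5 in EV and 38.5 to 41.0 in YY2-NC. Of 14 matrix protease and urokinase genes 5 were kept as higher and 3 as lower, and 3 and 1 remained. PLAU, the urokinase itself, had 472, 492 and 456 CPM in ND, 768 to 795 in EV, 878 to 926 in YY2-NC and 496 to 535 in FOXRED1-NC, all in the scaling of 12 libraries.

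Complex I subunits, 35 tested, had medians of -0.20 against EV and 0.10 against YY2-NC, and 4 were kept as higher and 7 as lower, of which 2 and 1 remained.

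Of the genes the study is about, 1 was kept as higher and 2 as lower, and 1 of each remained with FOXRED1-NC. FOXRED1, an assembly factor of complex I, had 28.3, 31.9 and 28.8 CPM in ND, 38.3 to 39.2 in EV and 32.5 to 34.0 in YY2-NC, and 17.3 to 17.9 in FOXRED1-NC. SLC3A2, the heavy chain of cystine transport, had 307, 323 and 317 CPM in ND, 363 to 369 in EV and 426 to 457 in YY2-NC. YY2 had 1.07 to 1.32 CPM in ND, 1.30 to 1.70 in EV and 2.35 to 2.39 in YY2-NC. TRIM15 had 1, 0 and 0 counts in ND and 0 in every EV and YY2-NC library, too few to test.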

How the data were processed

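RNA-seq of 24 OE33 libraries was deposited as 4 tables of whole-number counts per gene, which the authors made from their reads. Per the labels, libraries came from a directional kit and builds hg38 and mm10 are named in the submitters' processing notes. The aligner and counter are not given in the sources used here. Tables were joined on 61860 identifiers, 99.8% of them named. The 37 mitochondrially encoded genes are at 0.

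Counts of ND, EV and YY2-NC (9 libraries) were filtered with filterByExpr (minimum count 10, total 15), scaled by TMM and fitted with the quasi-likelihood model of edgeR 4.0.16 in R 4.3.3, with Benjamini-Hochberg adjustment at 0.05. HFD and FOXRED1-NC were fitted on their own. CPM are TMM-scaled. The method was tested on simulated data in which only a small share of the 16873 genes was changed. There ND against EV recovered 48% of 1.2-fold, 72% of 1.5-fold, 80% of 2-fold and 98% of 4-fold changes, with 6.29% of calls false. In the real data most genes were called, and that setting was not simulated. DESeq2 1.42.0, other scalings and filters, a replicate block and leaving out libraries were alternatives. HFD against YY2-NC was added after the FOXRED1-NC values were seen.

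Genes to name were the 10 kept genes of each direction with the largest smaller log2 change at 5 CPM or more, up to 4 kept members of each list and direction, and a set of known genes. EGR1, JUN, DUSP6, DDIT3, CTSD, PHGDH, ACACA and the marker genes DCN, C1QA, ADIPOQ, COL1A2 and HBB were named after their values were seen. The members and lists were chosen with earlier results of these data known. With 3 libraries against 3, an exact permutation test of a single gene cannot go below 0.1. A few genes of the lists are not reported here by name.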

Additional observations from a re-analysis of the deposited data

Results flagged for a closer look

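Among the genes named by rule, 2 differed in opposite directions from the culture groups, and the difference between those groups passed edgeR's quasi-likelihood test. CXCL8 was higher in ND than in EV by 1.67 ± 0.04 on the log2 scale and lower than in YY2-NC by -0.29 ± 0.04, with EV against YY2-NC at -1.96. MUC5AC, a gel-forming mucin, was higher than EV by 0.61 ± 0.11 and lower than YY2-NC by -0.58 ± 0.10, with EV against YY2-NC at -1.20. Over all genes, 199 were called higher than EV and lower than YY2-NC, and 161 the reverse.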

How the results depend on the processing

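Other size factors, filters, DESeq2, a fit of 2 groups alone and leaving out single libraries kept every count of called or kept genes over the whole table within 1.5 times its value. Over all settings, 74 counts of list members moved further and 776 did not, 159 list medians moved, 6 reversed and 585 did neither, and of single gene values 53 lost their call, 8 gained one, 4 reversed and 5553 did neither. Without single libraries, calls ran from 5567 to 6071 higher and 5755 to 6163 lower against EV, 5079 to 5432 and 5309 to 5582 against YY2-NC, 2941 to 3622 and 2764 to 3518 for EV against YY2-NC, and 5176 to 5520 and 4858 to 5324 for HFD against FOXRED1-NC. Kept genes ran from 4765 to 5098 higher and 4806 to 5010 lower. These lie above the full counts of 4622 and 4668, because the rule is easier to meet with fewer libraries. Upper quartile scaling shifted the split against EV to 7124 higher and 4910 lower, and against YY2-NC to 6556 and 4579. Its kept genes were 5700 higher and 3703 lower. With a 2-fold limit, the counts were 1744 and 666 against EV, 1063 and 538 against YY2-NC, 119 and 433 for EV against YY2-NC, 1309 and 1126 for HFD against FOXRED1-NC, and 846 and 308 kept. FOXRED1-NC as a further culture group left 2235 and 2449 kept, and in place of EV, chosen after seeing the data, 2742 and 2841. The cause was not tested.

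Same-numbered libraries did not deviate together in every pair, so the numbers were not taken as pairs. With a replicate block, 5940 genes were higher and 6016 lower than EV.

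The mesenchymal median against EV reversed to 0.058 with upper quartile scaling and to 0.057 with at least 10 counts in every library, was -0.403 with no filter, and ran from -0.113 to 0.060 without single libraries. Without single libraries, VEGFA against YY2-NC ran from -0.0270 to 0.0325, CA9 against EV from -0.0795 to 0.283, and CA9 against YY2-NC from -0.0029 to 0.423. The cause was not tested.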
